A study of Homo sapiens with 4 samples.

Results

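MALAT1 and NEAT1 are long non-coding RNAs that stay in the nucleus, and their signal was compared in MKN45 cells with and without bacterial lipopolysaccharide (LPS). The RNAs were followed through every probe set that the array platform's annotation assigns to MALAT1 or NEAT1 alone, 12 of the 54613 non-control probe sets on each array. All 12 belonged to MALAT1, and 0 were assigned to NEAT1 alone. NEAT1 appears in the annotation of 9 further probe sets, each time together with MIR612, a microRNA gene that lies inside NEAT1 in RefSeq. These 9 are given below as the probe sets annotated jointly to NEAT1 and MIR612. They fall outside that rule, and which of the genes each one reports was not tested. The pair of RNAs was chosen by an earlier look at the LPS contrast of these same arrays, in which MALAT1 was lower with LPS. Their LPS differences are therefore a description, given without a p-value.

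MKN45 is an established line of human gastric cancer cells with epithelial character. LPS-treated cells received medium with 10 µg/ml H. pylori LPS, the glycolipid of the outer membrane of the stomach bacterium Helicobacter pylori, and untreated cells received fresh medium. RNA was taken after 8 h in both groups and hybridised to 2 arrays of LPS-treated and 2 arrays of untreated cells, named as replicates 1 and 2 in each group. The series text speaks of 2 independent experiments, all in this 1 cell line. The 8 gastric epithelial markers are given by their brightest probe sets. EPCAM, CDH1, KRT8, KRT18, KRT19 and MET lay at log2 levels of 13.08 to 14.65 on all 4 arrays. Other probe sets of CDH1, KRT19 and MET had mean levels of 7.57 to 12.40. GATA6 lay at 11.66 and 11.66 with LPS against 11.93 and 11.83 in untreated cells, and CDX2, near the array median, at 7.12 and 7.20 with LPS against 6.995 and 6.87 in untreated cells. Of the 8, 0 passed in limma, with 1 higher and 1 lower before adjustment (p under 0.05). Array medians lay at log2 levels of 7.004 to 7.035. The number of arrays limits the precision, and fewer cells with a transcript cannot be told apart from less RNA per cell.

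MALAT1 is an abundant RNA of nuclear speckles, the domains that store splicing factors. Its 3′ end is not a usual poly(A) tail. RNase P and the tRNA-processing nuclease ELAC2 cut the primary transcript, which frees a small tRNA-like RNA and leaves an end protected by a triple helix. NEAT1 lies near MALAT1 on chromosome 11 and is the scaffold of paraspeckles, nuclear bodies built with the RNA-binding proteins NONO, SFPQ and PSPC1. In human cells NEAT1 has been tied to transcription of CXCL8, the gene of interleukin 8, through SFPQ.

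The sequences around the annotated starts of MALAT1 are shown because they place the gene's promoters. RefSeq (GRCh38.p14) gives a pair of start windows, each of 300 bases with 250 before and 50 after a start, on the + strand. In the windows as printed, capitals mark TATAAA, the core of the TATA element.
MALAT1, chr11:65497488-65497787: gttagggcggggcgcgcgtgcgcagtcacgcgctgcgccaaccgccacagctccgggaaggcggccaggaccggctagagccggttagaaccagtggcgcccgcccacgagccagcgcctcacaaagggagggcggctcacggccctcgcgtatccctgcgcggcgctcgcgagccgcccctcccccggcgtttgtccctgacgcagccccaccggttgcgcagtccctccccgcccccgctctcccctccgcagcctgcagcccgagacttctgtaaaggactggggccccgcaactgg
MALAT1, chr11:65498795-65499094: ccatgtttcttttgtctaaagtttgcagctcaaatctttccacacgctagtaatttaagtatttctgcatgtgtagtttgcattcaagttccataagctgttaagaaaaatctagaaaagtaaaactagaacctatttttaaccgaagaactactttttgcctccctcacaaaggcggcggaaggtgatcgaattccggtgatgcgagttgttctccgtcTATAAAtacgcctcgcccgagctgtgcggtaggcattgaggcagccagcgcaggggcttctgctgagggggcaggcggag
The first window had a GC content of 73.7% and held no TATAAA. The second had a GC content of 46% and held 1 TATAAA on the + strand, whose first base lay 30 bases before the start. TATAAA occurred, on either strand, in 11.5% of 35116 such windows over all genes. A match or its lack describes these letters only. Which start MKN45 cells used was not measured.

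All 12 MALAT1 probe sets had lower means with LPS than in untreated cells, by -1.06 to -0.06 on the log2 scale, with a median of -0.61. Of the 12, 10 had both LPS arrays below both untreated arrays, and the other two overlapped. Of all 54613 probe sets, 21.1% had both LPS arrays below both untreated arrays. The share was 32.9% among probe sets with a mean log2 level of at least 8, a group that held 9 MALAT1 probe sets, of which 8 had the groups apart. Since MALAT1 was chosen on this contrast, nothing is read from these counts. Averaged over the 12 probe sets, the MALAT1 level was 8.32 and 8.41 on the LPS arrays, against 8.88 and 9.06 on the untreated arrays. The means were 8.37 ± 0.06 with LPS and 8.97 ± 0.13 in untreated cells (log2 level, SD, n = 2 each), a difference of -0.60, or 1.52-fold lower with LPS.

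The MALAT1 probe set with the largest difference was 1558678_s_at. It lay at 11.50 and 11.69 on the LPS arrays, against 12.39 and 12.91 on the untreated arrays (log2 level), 2.08-fold lower with LPS. The LPS arrays were close to each other, while the untreated arrays were 0.52 apart. Probe set 224567_x_at lay at 9.77 and 9.92 on the LPS arrays, against 10.62 and 11.10 on the untreated arrays, a difference of -1.01. Probe set 226675_s_at lay at 9.32 and 9.29 on the LPS arrays, against 9.89 and 10.71 on the untreated arrays, 1.997-fold lower with LPS. Its untreated arrays stood 0.82 apart, the widest gap within a group among the 12, and untreated replicate 2 was the higher array in all 3 of these probe sets.

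A second set of MALAT1 probe sets differed by a little less, with narrower gaps between untreated arrays. Probe set 223940_x_at lay at 8.74 and 8.68 on the LPS arrays, against 9.47 and 9.70 on the untreated arrays, a difference of -0.88. Probe set 231735_s_at lay at 8.02 and 8.11 on the LPS arrays, against 8.75 and 8.93 on the untreated arrays, a difference of -0.78. Here the distance between the groups was several times the distance within either group. Probe set 224568_x_at lay at 7.43 and 7.88 on the LPS arrays, against 8.40 and 8.45 on the untreated arrays, a difference of -0.77, and in this one the LPS arrays were the ones spread apart. Probe set 223577_x_at lay at 8.08 and 8.10 on the LPS arrays, against 8.42 and 8.64 on the untreated arrays, a difference of -0.44.

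The remaining 5 MALAT1 probe sets had differences of -0.36 to -0.06. The endings _x_at and _s_at mark probes that may pick up several transcripts, and among the 12 only 224559_at lacks both. It lay at 8.43 and 8.88 on the LPS arrays, against 8.79 and 9.15 on the untreated arrays, a difference of -0.31, and the groups overlapped. In both groups replicate 2 was the higher array on this probe set. The 4 others were 228582_x_at (-0.36), 223578_x_at (-0.28), 224558_s_at (-0.27) and 227510_x_at (-0.06). The first 3 of them had both LPS arrays lowest, whereas 227510_x_at overlapped, at 7.06 and 6.76 with LPS against 7.13 and 6.81 in untreated cells. The 7 _x_at probe sets differed by -1.01 to -0.06 and the 4 _s_at ones by -1.06 to -0.27, so neither type held all the large differences. The probe sets of MALAT1 share their transcript and are not replicates of the treatment.

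**Figure D1:**
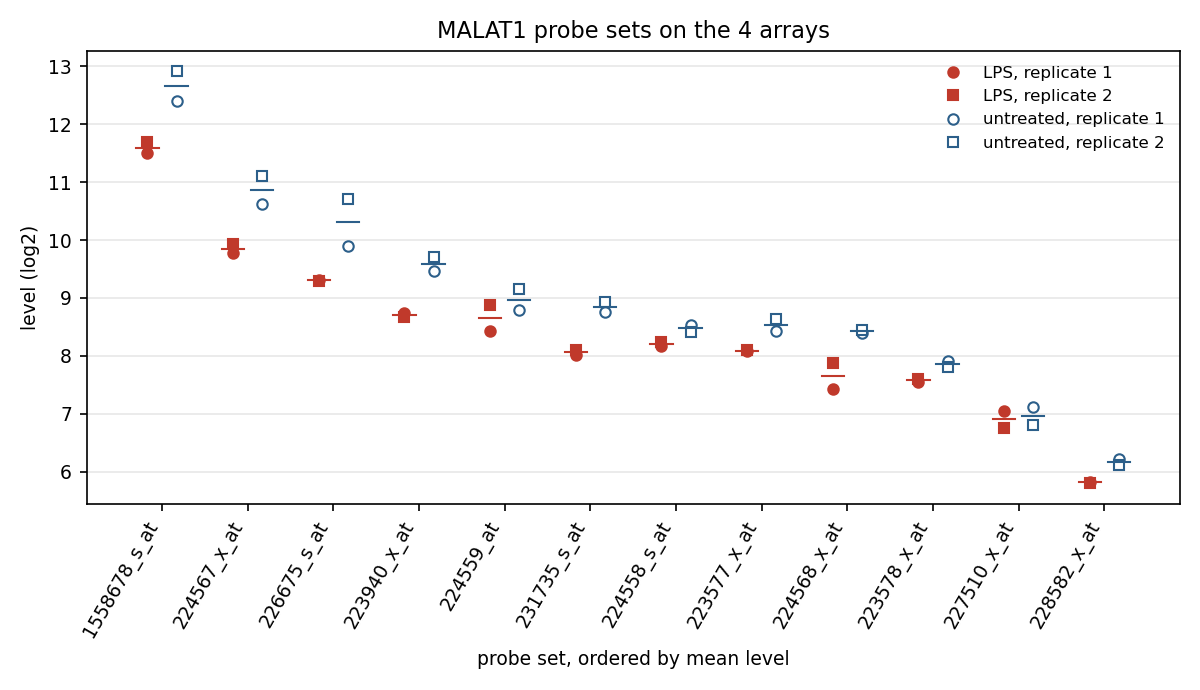
Log2 level of the 12 MALAT1 probe sets, with filled points for the 2 LPS arrays, open points for the 2 untreated arrays and lines for group means. LPS means lie below untreated means throughout, with differences of -1.06 at 1558678_s_at and -0.06 at 227510_x_at, and 224559_at and 227510_x_at are the ones whose groups overlap.

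The 9 probe sets annotated jointly to NEAT1 and MIR612 also had lower means with LPS, by -1.26 to -0.04, with a median of -0.38. Of the 9, 8 had both LPS arrays below both untreated arrays, against 21.1% of all probe sets, a count from which nothing is read, since the pair was chosen on this contrast. Averaged over the 9, the level was 8.92 and 8.83 on the LPS arrays, against 9.19 and 9.54 on the untreated arrays. The means were 8.87 ± 0.06 with LPS and 9.36 ± 0.24 in untreated cells (log2 level, SD, n = 2 each), a difference of -0.49. Probe set 227062_at had the lowest LPS difference of all 54613 probe sets. It lay at 9.68 and 9.68 on the LPS arrays, against 10.39 and 11.49 on the untreated arrays, 2.40-fold lower with LPS. Its untreated arrays stood 1.10 apart, nearly as far as the groups did.

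The same form, with tight LPS arrays and untreated replicate 2 on top, recurred at 225239_at. It lay at 10.63 and 10.72 on the LPS arrays, against 10.99 and 11.87 on the untreated arrays, a difference of -0.76. Probe set 234989_at lay at 12.21 and 11.91 on the LPS arrays, against 12.55 and 13.14 on the untreated arrays, a difference of -0.79. Other jointly annotated probe sets had small gaps inside both groups. Probe set 224565_at lay at 10.87 and 10.85 on the LPS arrays, against 11.11 and 11.37 on the untreated arrays, a difference of -0.38. Probe set 224566_at lay at 9.69 and 9.64 on the LPS arrays, against 9.92 and 9.97 on the untreated arrays, a difference of -0.28. In 238320_at the value rested on 1 LPS array, with 8.19 and 7.56 with LPS against 8.34 and 8.40 in untreated cells. The remaining 3 were 214657_s_at (-0.27), 220983_s_at (-0.15) and 239269_at (-0.04), and in the last the groups overlapped. The accession of 220983_s_at is listed under SPRY4, a protein-coding gene, in the RefSeq table, and the mean difference of the other 8 was -0.54.

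**Figure D2:**
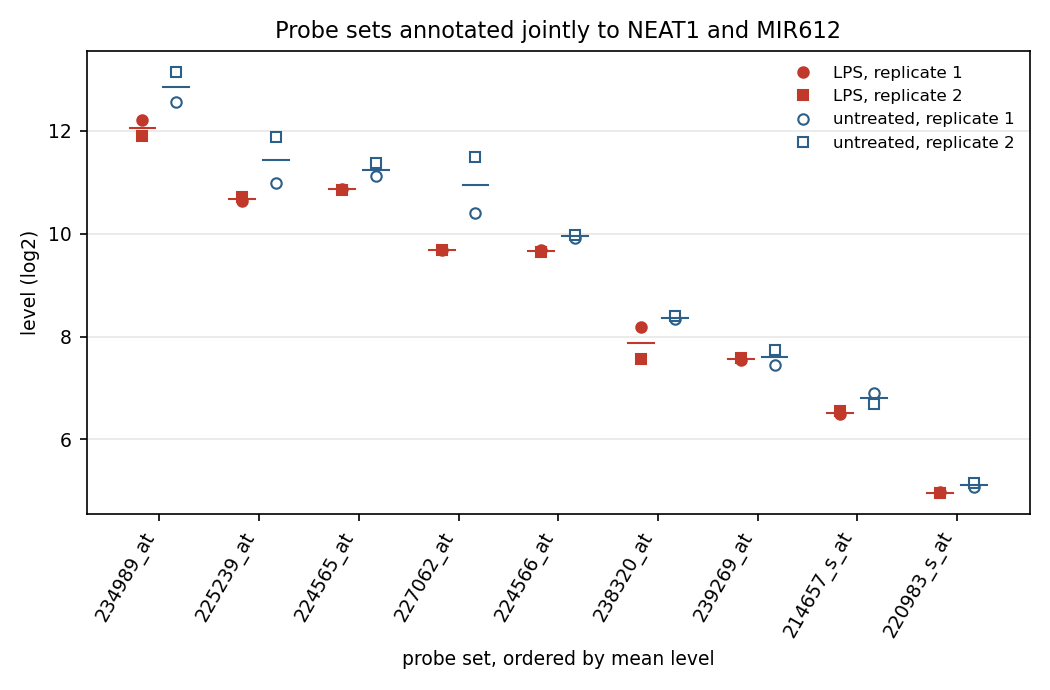
Log2 level of the 9 probe sets annotated jointly to NEAT1 and MIR612, with filled points for the 2 LPS arrays, open points for the 2 untreated arrays and lines for group means. Untreated replicate 2 stands 1.10 above untreated replicate 1 at 227062_at and 0.88 above it at 225239_at, while the LPS arrays there nearly coincide.

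Set against the whole array, 9 of these 21 probe sets were among the 27 lowest differences, while others ranked far higher, up to place 16052 for MALAT1 (227510_x_at) and 19174 for the jointly annotated set (239269_at). At a difference of -0.75 or lower there were 27 probe sets, of which 6 belonged to MALAT1 and 3 to the jointly annotated set. At -1.0 or lower there were 4, of which 2 belonged to MALAT1 and 1 to the jointly annotated set, and the fourth belonged to SMIM14. These counts restate the values on which MALAT1 was chosen. The 3 MALAT1 probe sets under a log2 level of 8 differed by -0.36 to -0.06, and the 9 at or above it by -1.06 to -0.27, so the ranges overlap. Over all probe sets with levels from 8 to 10 the median difference was -0.03, against -0.77 for the 7 MALAT1 probe sets in that range.

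**Figure D3:**
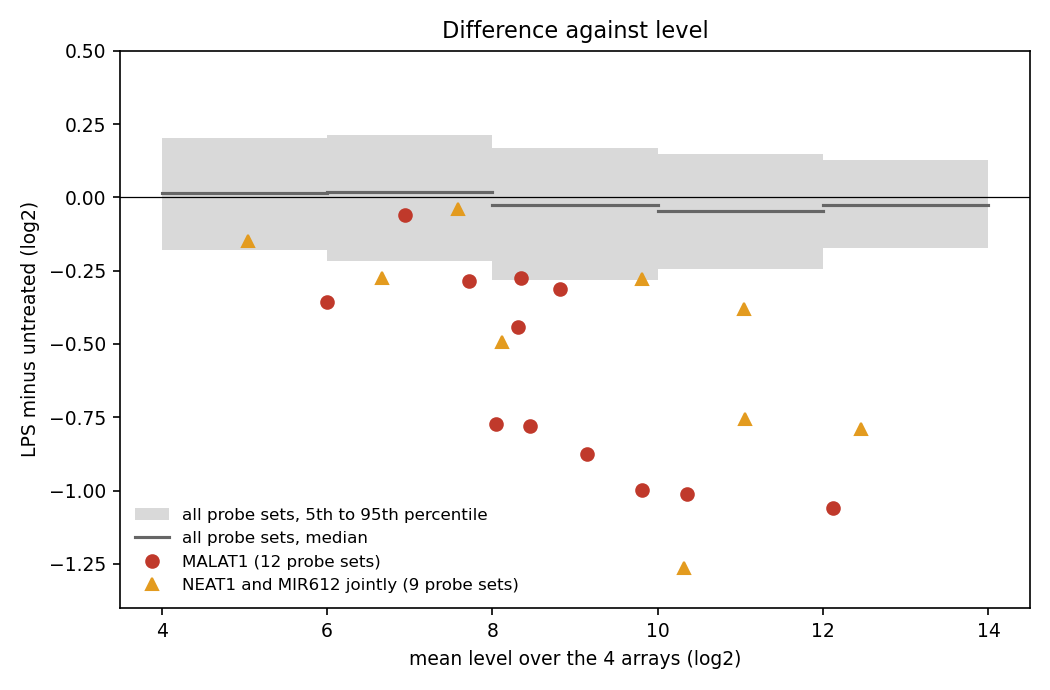
LPS minus untreated (log2) against the mean log2 level for the 12 MALAT1 probe sets (circles) and the 9 annotated jointly to NEAT1 and MIR612 (triangles), over grey bands from the 5th to the 95th percentile of all probe sets in the same level range. Most points lie below the bands, and the values at higher levels reach -1.06 for MALAT1 and -1.26 for the joint set.

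In the fit across the array, 38229 probe sets lay above the level filter, among them 11 of the 12 MALAT1 and 8 of the 9 jointly annotated probe sets. Of the 38229, 0.00785% (3) passed as higher with LPS and 0% as lower (limma, adjusted p under 0.05), and before adjustment 1411 were higher and 3066 lower (p under 0.05). Past the adjusted threshold, cyclic loess and quantile normalization each gave 4 higher to 4 lower, and median centring gave 6 higher to 11 lower. Before adjustment (limma p under 0.05), cyclic loess gave 1832 higher to 2716 lower and quantile normalization 1928 to 2598. Median centring gave 1135 to 3419. No p-value of a MALAT1 or jointly annotated probe set is given, since this contrast chose the pair. The size of the differences depended on which untreated array was kept. Without untreated replicate 1 the mean difference was -0.70 for MALAT1 and -0.66 for the jointly annotated set, and without untreated replicate 2 it was -0.51 for MALAT1 and -0.32 for the jointly annotated set.

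The contrast of the RNAs was taken within each array, so that a factor common to an array drops out. The mean MALAT1 level minus the mean jointly annotated level was -0.59 and -0.42 on the LPS arrays, against -0.32 and -0.47 on the untreated arrays. The groups overlapped, with -0.50 ± 0.13 with LPS and -0.39 ± 0.11 in untreated cells (SD, n = 2 each). The LPS difference of MALAT1 was thus more negative by -0.11, which is within the spread of either group. The sign turned to 0.26 when only probe sets without the _x_at and _s_at endings were used, which leaves 224559_at for MALAT1 and 7 jointly annotated probe sets. With 2 arrays in each group, these values do not show that the RNAs differed by the same amount.

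The gaps between arrays of 1 group come from the same arrays as the contrast that chose the pair. A single high untreated array enters both, so the gaps are a description too. The absolute gap between the untreated arrays had a median of 0.10 over the 38229 probe sets above the filter, and its 95th percentile was 0.31. Untreated replicate 2 exceeded untreated replicate 1 in 8 of 12 MALAT1 probe sets, by up to 0.82, and in 8 of 9 jointly annotated ones, by up to 1.10. The share over all probe sets was not counted, so nothing is read from these counts. The median of all probe sets was also higher on untreated replicate 2, at 7.032 against 7.004 on untreated replicate 1. In 24 of all 54613 probe sets the untreated arrays stood 0.75 or more apart, and these held 1 MALAT1 and 2 jointly annotated probe sets. Between the LPS arrays 163 of all 54613 probe sets were 0.5 or more apart. Of these, none belonged to MALAT1 and 1 was jointly annotated, 238320_at. Just under that limit, the LPS arrays stood 0.45 apart at 224568_x_at and 224559_at, both of MALAT1, and there the LPS gap was the wider one.

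Controls on the arrays differed with the groups as well. Poly-A spike-ins are bacterial RNAs put into each sample ahead of labelling. They averaged 7.98 and 7.92 on the LPS arrays, against 8.60 and 8.25 on the untreated arrays (log2 level), and all 24 of their probe sets had both LPS arrays lowest. Among the untreated arrays their order was opposite to that of MALAT1, with replicate 1 the higher. The 18S ribosomal RNA probe sets averaged 7.97 and 8.41 on the LPS arrays, against 8.73 and 8.79 on the untreated arrays. Those of 28S ribosomal RNA averaged 9.77 and 9.92 on the LPS arrays, against 9.68 and 9.82 on the untreated arrays, and they overlapped. Hybridisation spike-ins, added after labelling, averaged 9.89 and 10.19 with LPS against 10.29 and 10.10 in untreated cells. The 3′ minus 5′ signal, a gauge of RNA and labelling quality, was 0.39 and 0.63 with LPS against 0.64 and 0.86 in untreated cells for ACTB. It was 0.00 and 0.11 with LPS against 0.02 and 0.07 in untreated cells for GAPDH. Of 3 leukocyte (from 6 listed) and 5 fibroblast or endothelial markers tested, 0 passed in limma, with 1 higher and 1 lower before adjustment (p under 0.05). The higher was CD53, at 8.56 and 8.87 with LPS against 8.39 and 8.38 in untreated cells. The lower was LYZ, a bright signal at 12.61 and 12.59 with LPS against 12.70 and 12.79 in untreated cells. The 5 fibroblast or endothelial markers lay at log2 levels of 6.21 to 9.24 by their brightest probe sets. The part of these factors in the MALAT1 and NEAT1 values was not tested.

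**Figure D4:**
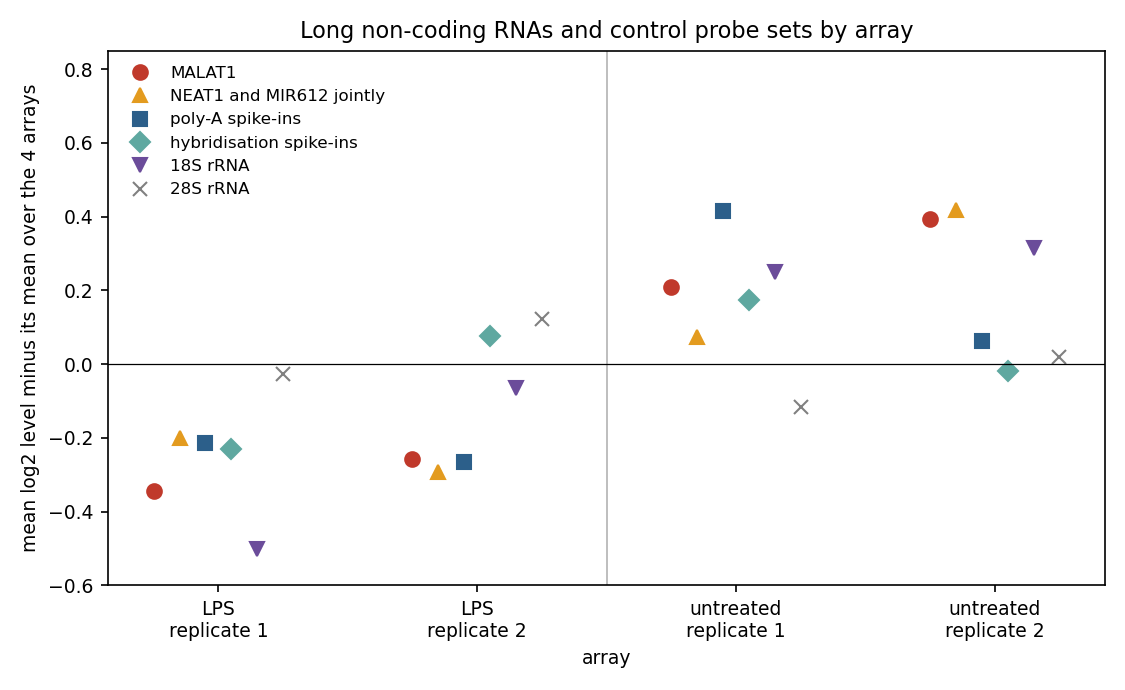
Mean log2 level on each of the 4 arrays, minus its mean over the 4, for MALAT1, the probe sets annotated jointly to NEAT1 and MIR612, the spike-ins and ribosomal RNA. MALAT1, the joint set, poly-A spike-ins and 18S have their LPS points under their untreated points. Between the untreated arrays poly-A spike-ins run opposite to MALAT1, while 18S has the order of MALAT1 over all 4 arrays.

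The probe sets whose centred levels over the 4 arrays were nearest to the mean MALAT1 profile were looked up among 618 named probe sets with a spread (SD over the 4 arrays) of at least 0.25. The nearest was 227223_at of RBM39, an SR-related splicing factor, at a Euclidean distance of 0.036. It lay at 9.18 and 9.26 on the LPS arrays, against 9.73 and 9.95 on the untreated arrays, a difference of -0.62, while the other 3 RBM39 probe sets differed by -0.19 to -0.09. The next 7 belonged to MRPS5, CDCA7, SPAG9, TMEM33, FGFR1OP2, SCAMP1 and CHD9, at distances of 0.053 to 0.095. In SPAG9 the matching probe set differed by -0.56 and the other 4 by -0.22 to 0.17. In TMEM33 it differed by -0.62 and the other 4 by -0.07 to 0.04. For SCAMP1 the matching value was -0.61 and the others lay between -0.55 and -0.15. In all 8 genes the matching probe set had a larger difference than the gene's others, by little in SCAMP1. It was picked for its nearness to the MALAT1 profile, so this is no result about the genes.

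For the jointly annotated mean profile, searched among 30362 named probe sets without a minimum spread, the nearest were probe sets of RAPH1, UQCRC2, PRPF38B, KHDC4, UBN2, TRMT13, SNORA21 and ZBED6, at distances of 0.042 to 0.085. PRPF38B and KHDC4 encode splicing factors. The PRPF38B probe set lay at 8.92 and 8.86 on the LPS arrays, against 9.13 and 9.51 on the untreated arrays, a difference of -0.43, against -0.04 on the gene's other probe set. The KHDC4 probe set differed by -0.48 and its other one by -0.09. In the 7 genes with more than 1 probe set, which leaves out SNORA21, the matching one had a lower difference than the gene's others. Here too it was picked for its nearness to the profile. Likeness over 4 arrays is a description of these values only.

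The proteins that work with these RNAs were compared next, each gene by its brightest probe set, in a limma fit in which 0.0246% of 16252 genes passed as higher with LPS and 0% as lower. Before adjustment, 3.72% of all genes were higher and 7.91% lower at p under 0.05, and the median difference of all genes was -0.0047. Of 30 paraspeckle proteins tested, 0 passed in either direction in limma, with 2 higher and 3 lower before adjustment (p under 0.05) and a median of -0.03. NONO lay at 13.48 and 13.51 with LPS against 13.45 and 13.44 in untreated cells, a difference of 0.05 (95% interval -0.03 to 0.13). SFPQ lay at 12.88 and 12.91 with LPS against 12.83 and 12.90 in untreated cells, a difference of 0.03 (interval -0.08 to 0.13), against -0.29 to -0.02 on its other 4 probe sets. PSPC1 differed by -0.0056 (interval -0.15 to 0.14). These 3, the core paraspeckle proteins, were named for their role. The smallest p-values in the list belonged to ZNF24, HNRNPA1 and UBAP2L, with limma adjusted p-values of 0.323, 0.327 and 0.333. ZNF24, a zinc finger protein, differed by -0.30, against -0.45 to 0.17 on its other 4 probe sets. HNRNPA1, an RNA-binding splicing regulator, differed by -0.21, against -0.15 and -0.11 on its other probe sets. UBAP2L differed by 0.19, against -0.14 to 0.13 on its other 3 probe sets.

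Of 29 nuclear speckle and SR proteins, 0 passed in limma, with 1 higher and 7 lower before adjustment (p under 0.05) and a median of -0.07. Other probe sets of these genes, with those under the level filter included, differed by -0.53 to 0.365. SRSF5, an SR splicing factor, lay at 11.18 and 11.13 with LPS against 11.37 and 11.38 in untreated cells, a difference of -0.22 (limma adjusted p = 0.320), and its other 2 probe sets differed by -0.26 and -0.22. CLK4, a kinase that phosphorylates SR proteins, differed by -0.30 (adjusted p = 0.323 in limma), against -0.47 to -0.10 on its other probe sets. Its relative CLK1 differed by -0.23 (adjusted p = 0.342 in limma). All 3, by their brightest probe sets, had both LPS arrays lowest, as did 32.9% of probe sets with a mean log2 level of at least 8. They were named for the smallest p-values in the list, so nothing is read from this.

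Of 28 genes of 3′ end processing, m6A methylation and nuclear RNA decay, 0 passed in limma, with 1 higher and 3 lower before adjustment (p under 0.05) and a median of -0.06. METTL14, a subunit of the m6A methyltransferase, differed by -0.21, against -0.17 to 0.04 on its other probe sets. RPP25, a subunit of RNase P, differed by 0.22, against 0.10 on its other probe set. EXOSC7, a subunit of the RNA exosome, differed by -0.13, against -0.05 on its other probe set. Their limma adjusted p-values were 0.379, 0.388 and 0.420, in this order. ELAC2, named for its role in cutting MALAT1, lay at 9.46 and 9.59 with LPS against 9.54 and 9.42 in untreated cells, a difference of 0.04 (interval -0.15 to 0.24).

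Among 18 other long non-coding RNAs tested, 0 passed in limma, with 2 higher and 5 lower before adjustment (p under 0.05) and a median of -0.05. EPB41L4A-AS1, a host of small nucleolar RNA, lay at 11.10 and 11.05 with LPS against 11.54 and 11.52 in untreated cells, a difference of -0.45 (limma adjusted p = 0.199), and -0.53 on its other probe set. It passed when the variance model was fitted on the gene rows alone. FTX and JPX, non-coding genes of the X inactivation centre, differed by -0.44 and -0.38, with limma adjusted p-values of 0.257 and 0.344. On their other probe sets the differences were -0.19 for FTX and -0.16 for JPX. Over all 1470 genes with the RefSeq biotype lncRNA the median difference was 0.03, with 64 higher and 60 lower before adjustment (p under 0.05) and 0 past the threshold in limma. The lowest value among them was that of the brightest MALAT1 probe set, which the choice of MALAT1 fixes.

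The genes around the NEAT1 and MALAT1 loci were taken from RefSeq order, up to 5 protein-coding genes on each side, and 10 were tested, with 0 passing in limma and 0 higher and 1 lower before adjustment (p under 0.05). FRMD8, the protein-coding neighbour on the NEAT1 side, lay at 9.91 and 9.96 with LPS against 10.14 and 10.11 in untreated cells, a difference of -0.19 (limma adjusted p = 0.376), but its other 3 probe sets differed by -0.03 to 0.27. The other 9 were LTBP3 (0.18), SLC25A45 (0.12, against -0.43 on its other probe set), FAM89B (0.06), EHBP1L1 (0.03), ZNRD2 (0.02), DPF2 (0.0054), CDC42EP2 (-0.0029), ZNRD2-DT (-0.03) and TIGD3 (-0.03). The median of the 10 was 0.01. ENEMAL, LINC02736, FAUP4, SNRPGP19, LOC124902691, LOC124902823, the MALAT1 antisense gene TALAM1 and the small RNA gene MASCRNA are among the genes there that were not analysed here. CXCL8 rose, with 9.42 and 9.39 on the LPS arrays against 7.77 and 7.58 on the untreated arrays, a difference of 1.73 (limma adjusted p = 0.00125).

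**Figure D5:**
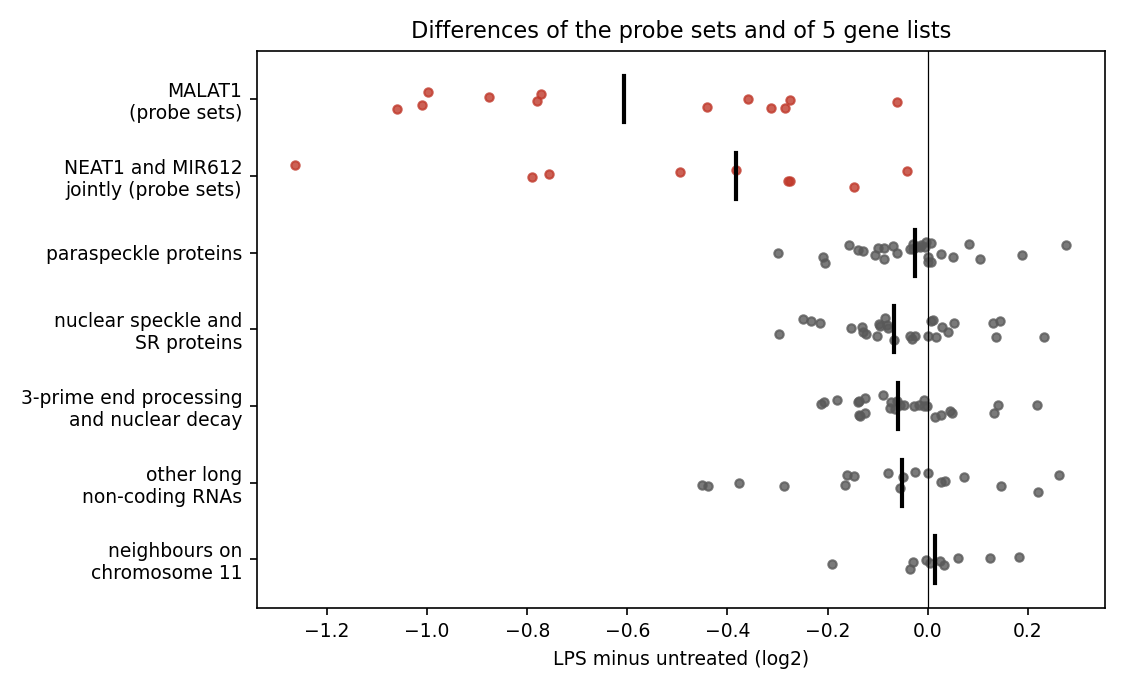
LPS minus untreated (log2) for the MALAT1 probe sets, the probe sets annotated jointly to NEAT1 and MIR612, and each gene of 5 lists by its brightest probe set, with black bars at the medians. The medians are -0.61 for MALAT1 and -0.38 for the joint set, which were chosen on this contrast, against -0.07 to 0.01 for the 5 lists. Other probe sets of the list genes, which are not drawn, differ by -0.53 to 0.365.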

How the data were processed

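The data were 4 Affymetrix expression arrays, 2 of LPS-treated and 2 of untreated MKN45 cells, grouped by their titles. The deposited values were log2 levels, judged from the values. The submitters' processing notes name MAS5 and RMA, and which of them made these values is not given in the sources used here. Sorted by size, the 4 arrays' deposited log2 values stayed within 0.0977 of each other, a scaling that would hide a shift of all transcripts.

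Probe sets were named by the supplied platform annotation, with symbols matched to RefSeq by Entrez identifier. No probe set was annotated to NEAT1 alone, so the planned NEAT1 value used the 9 annotated jointly to NEAT1 and MIR612. A gene value for MALAT1 is the mean of the log2 levels of its probe sets. Control probe sets (62) were left out.

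Tests used R 4.3.3 and limma 3.58.1 (lmFit, eBayes with trend, no replicate block, two-sided, Benjamini-Hochberg) over 38229 probe sets whose mean reached the 30 percentile (6.056). For 16252 genes the brightest probe set's result from that fit was adjusted over genes. The p-values measure the spread between these arrays, which may be technical.

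The members, gene lists and tests were chosen with earlier results of these data known. Named were all member probe sets, the 3 list genes with the smallest p where none passed, all measured neighbours, the 8 most similar profiles, CXCL8, and, outside the rule, NONO, SFPQ, PSPC1 and ELAC2. Alternatives covered normalization, filters, variance models, probe set choice, a replicate block and leaving out each array.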

Additional observations from a re-analysis of the deposited data

How the results depend on the processing

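The MALAT1 difference (-0.60) stayed below 0 under all 13 alternatives. It was -1.06 with the brightest probe set alone, -0.31 without _x_at and _s_at probe sets and -0.73 with probe sets at a level of at least 8 (added after seeing the data), and -0.70 to -0.51 with 1 array left out. Nothing is read from the unchanged sign, since MALAT1 was chosen on this contrast. All 12 probe sets were lower with LPS, so no choice among them could turn it. The jointly annotated NEAT1 and MIR612 difference (-0.49) was -0.28 as a median over probe sets, -0.79 with the brightest alone and -0.66 to -0.32 with 1 array left out. MALAT1 minus the joint set (-0.11) was -0.28 as a median, -0.27 with the brightest alone, 0.26 without _x_at and _s_at probe sets and -0.20 to -0.02 with 1 array left out. The cause of these shifts was not tested. The count of 3 probe sets past the threshold was 5 with a filter at the 50 percentile or robust eBayes, 8 after quantile normalization or cyclic loess, 17 after median centring, and 2 to 11 with 1 array left out, the 11 without untreated replicate 1. The count of 4 genes was 3 to 5 with 1 array left out. It was 10, with 1 list gene (EPB41L4A-AS1, limma adjusted p = 0.0427) in place of 0, when the variance model was fitted on the gene rows alone, an alternative added after seeing the data. In all the other alternatives 0 list genes passed. The labels do not say whether the replicate number marks one of the 2 experiments (deviations of same-numbered arrays correlated at r = 0.214 over probe sets). With the replicate number as a block, 7 genes and 3 probe sets passed, 0 of them list genes, and the mean differences of MALAT1 (-0.60) and the joint set (-0.49) do not move by construction. Where 1 array remained in a group, the other group supplied the spread.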
